A study of Mus musculus with 4 samples.

Results

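The Z-disc, titin and M-band genes described here are 10 genes of the sarcomere's scaffold: Ttn, Tcap, Actn2, Ldb3, Myoz2, Nebl, Csrp3, Ankrd1, Myom1 and Myom2. They were taken by symbol from 19505 named genes on mouse Clariom S arrays, each had 1 probe set, and all 10 were read above background on all 4 arrays. The RNA came from hearts of ICR (Jcl:ICR) mice that had been injected with 5 µl at postnatal day 1, with a viral vector for Tbx6 or with phosphate-buffered saline (PBS) alone. The hearts were collected after 7 or 30 days, with 1 array for each of the 4 groups, PBS day 7, Tbx6 day 7, PBS day 30 and Tbx6 day 30. The labels speak of injection under the skin of the back in one field and of introduction into the heart in another, and no group received an empty vector. The sources used here do not give the vector type, its promoter, the hearts pooled per RNA sample or the animals' sex.

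The sarcomere is the contractile unit of heart muscle, and the Z-disc is the wall at each of its ends, where actin filaments of opposite direction are crosslinked by alpha-actinin. Titin, a giant elastic filament, is anchored in the Z-disc by the titin cap protein and runs to the M-band at the sarcomere's centre, where myomesins tie it to the myosin filaments. In the mouse heart the first weeks after birth are a time of cardiomyocyte enlargement and myofibril maturation. Proteins of the Z-disc also serve as sensors of stretch, and mutations in several of these genes are known causes of cardiomyopathy.

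With no replicates inside a group, day was tested across the injections and injection across the days, in an additive limma model over 9753 genes, the upper part of all named genes by mean level from the median up, with all 10 scaffold genes among them. This model leaves 1 residual degree of freedom, the gap between the day changes after PBS and after Tbx6, and not a spread of replicates. Its standard errors (SE) and intervals lean on the variance of other genes, which gives 7.46 of the 8.46 degrees of freedom. Differences between single arrays have no test. Nothing in the labels says whether same-day arrays came from separate litters, and the p-values do not measure a spread between animals of a group. A call means a Benjamini-Hochberg adjusted p under 0.05 by limma, two-sided, and the verbs rose and fell are kept for calls. All levels are log2 values as deposited, and differences are in log2 units. A probe set's level depends on its own probes, so levels are compared between arrays and not between genes.

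RefSeq's promoter table (GRCm38.p6, 250 bases before to 50 after a start site) matched 8 of the 10 genes, with 13 start sites. Tcap and Myom2 were unmatched. Shown as examples are Ankrd1, Myoz2, Ttn and Ldb3, each with a match to a muscle motif, and Trim54, a titin-linked ubiquitin ligase gene that rose between days. Capitals mark the M-CAT element (CATTCC, or GGAATG on the other strand), the MEF2 site and the CArG box. Both strands were searched, and no marked motifs overlapped in these windows.
Ankrd1, chr19:36119795-36120094 (- strand): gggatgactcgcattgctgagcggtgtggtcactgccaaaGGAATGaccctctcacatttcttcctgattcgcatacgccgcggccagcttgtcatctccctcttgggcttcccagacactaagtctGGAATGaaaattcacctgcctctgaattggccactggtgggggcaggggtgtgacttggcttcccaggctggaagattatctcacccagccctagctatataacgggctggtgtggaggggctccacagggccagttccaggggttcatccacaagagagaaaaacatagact
Myoz2, chr3:123034938-123035237 (- strand): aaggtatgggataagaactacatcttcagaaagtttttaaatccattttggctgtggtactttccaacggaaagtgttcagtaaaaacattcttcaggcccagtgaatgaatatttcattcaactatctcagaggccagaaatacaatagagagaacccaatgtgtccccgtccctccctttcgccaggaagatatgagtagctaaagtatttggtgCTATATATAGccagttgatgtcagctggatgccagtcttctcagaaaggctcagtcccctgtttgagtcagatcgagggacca
Ttn, chr2:76982498-76982797 (- strand): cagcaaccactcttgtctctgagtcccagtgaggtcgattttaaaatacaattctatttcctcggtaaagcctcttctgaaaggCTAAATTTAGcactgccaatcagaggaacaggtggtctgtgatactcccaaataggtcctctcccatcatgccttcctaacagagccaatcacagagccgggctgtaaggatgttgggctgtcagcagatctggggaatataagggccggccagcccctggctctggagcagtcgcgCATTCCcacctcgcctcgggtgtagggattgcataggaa
Ldb3, chr14:34588632-34588931 (- strand): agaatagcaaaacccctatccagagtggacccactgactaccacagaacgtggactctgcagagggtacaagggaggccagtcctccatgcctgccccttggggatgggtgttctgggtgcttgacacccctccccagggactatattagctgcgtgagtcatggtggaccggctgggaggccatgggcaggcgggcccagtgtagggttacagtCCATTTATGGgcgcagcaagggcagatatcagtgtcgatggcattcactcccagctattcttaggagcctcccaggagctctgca
Trim54, chr5:31116362-31116661 (+ strand): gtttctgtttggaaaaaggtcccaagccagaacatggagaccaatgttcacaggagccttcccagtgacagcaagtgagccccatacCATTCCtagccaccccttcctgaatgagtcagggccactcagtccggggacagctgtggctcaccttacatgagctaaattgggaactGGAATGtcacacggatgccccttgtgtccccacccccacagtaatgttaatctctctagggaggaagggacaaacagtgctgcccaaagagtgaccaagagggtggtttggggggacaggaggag
Ankrd1 holds 2 M-CAT matches, at -210 and -123 from its start site, and Ttn holds 1, which lies 11 bases past the start. An MEF2 match lies at -33 in Myoz2 and at -166 in Ttn, and a CArG match at -35 in Ldb3. Of the genes not printed, Nebl has an M-CAT match at -230 of one start site and a CArG match at -162 of another, and Myom1 a CArG match at -99. Trim54 has 2 M-CAT matches as well. Over the 13 windows M-CAT was found in 3, MEF2 in 2 and the CArG box in 4, of which 2 are overlapping windows of Ldb3 that share 1 match. Of all 32851 windows of that length, 14.7% hold M-CAT, 3.19% MEF2 and 1.63% the CArG box. The E-box CANNTG was found in 10 of the 13 windows against 72.3% of all, the GATA letters AGATAA in 4 against 11.2%, the TATA letters TATAAA in 0 against 13.6%, and the heat shock letters TTCNNGAA in 0 against 8.52%. These matches describe the letters and are no evidence of binding.

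Tcap, which encodes telethonin, the cap that joins the ends of 2 titin molecules in the Z-disc, was the 1 gene of the 10 that changed between days. At day 7 it read 10.65 (PBS) and 11.18 (Tbx6), and at day 30 it read 14.21 (PBS) and 13.79 (Tbx6). Both readings of day 30 were thus far above both of day 7, and the groups of days did not overlap. Tcap rose by 3.08 (SE 0.29, 95% interval 2.42 to 3.75, adjusted p = 0.000251 by limma), an 8.47-fold change. Over all genes tested, 14.2% were called as higher and 12.1% as lower at day 30, 26.3% in all, against this 1 of 10. By size of the rise Tcap stood at rank 53 of the 9753. The rise was 3.56 (11.8-fold) between the PBS arrays and 2.61 (6.09-fold) between the Tbx6 arrays. The gap of 0.95 between these rises has no test of its own, and 10.7% of all genes tested had a gap at least as large. In bulk heart RNA, fewer cells of a type and less RNA per cell cannot be told apart.

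**Figure D1:**
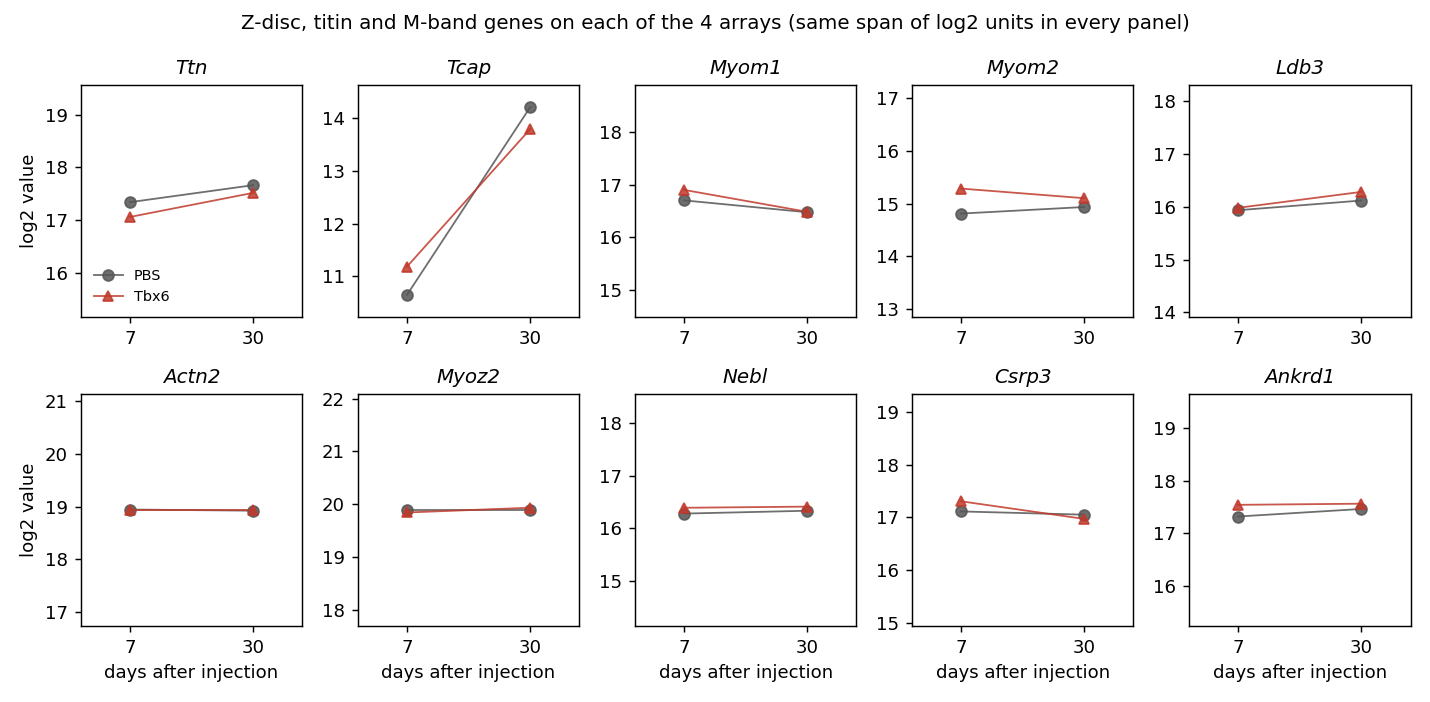
Log2 value of each of the 10 genes against days after injection, with 1 array per point (grey circles, PBS; red triangles, Tbx6) and the same span of log2 units in every panel. Tcap climbs from 10.65 and 11.18 to 14.21 and 13.79, while the lines of the other genes stay within 0.60 log2 units.

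Titin itself did not pass the test. Ttn read 17.34 (PBS) and 17.06 (Tbx6) at day 7, and 17.66 (PBS) and 17.52 (Tbx6) at day 30. Both day 30 readings were the higher ones, yet the change of 0.39 (SE 0.24, 95% interval -0.16 to 0.94, adjusted p = 0.27 by limma) missed the threshold. Over the 12 limma fits tried its adjusted p ranged from 0.0512, with a trended variance prior, to 0.572. Where the probes of its single probe set lie within the gene was not looked up. The known postnatal exchange of long for short titin isoforms was therefore not examined.

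The adaptors that sit on alpha-actinin gave no call for day. Ldb3, which encodes the PDZ-LIM protein Cypher, read 15.93 and 15.98 at day 7 and 16.12 and 16.28 at day 30 (PBS first in each pair, as in all pairs of readings that follow). Its change of 0.24 had a 95% interval of -0.31 to 0.80. Nebl, which encodes nebulette, the cardiac relative of nebulin that lies along thin filaments at the Z-disc, read 16.28 and 16.39 at day 7 and 16.34 and 16.41 at day 30. The 4 readings lay within 0.13 log2 units, and the interval of its change ran from -0.51 to 0.59. Csrp3, which encodes the muscle LIM protein, read 17.11 and 17.31 at day 7 and 17.05 and 16.97 at day 30. The change of -0.20 (95% interval -0.76 to 0.36) was not past the test, although both readings of day 30 were the lower ones.

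Ankrd1 encodes a repeat protein that binds the elastic part of titin and acts in the nucleus, and it is known to respond to stretch. Its readings at day 7 were 17.32 (PBS) and 17.54 (Tbx6), and those at day 30 were 17.46 (PBS) and 17.56 (Tbx6). The groups of days overlapped, with a change of 0.08 and a 95% interval of -0.47 to 0.64.

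The M-band pair showed no call either. Myom1, which encodes myomesin, read 16.70 and 16.90 at day 7, and 16.48 and 16.49 at day 30. Both late readings were lower, with a change of -0.32 (SE 0.24, 95% interval -0.88 to 0.24, adjusted p = 0.366 by limma). Myom2, which encodes the M-protein of fast-contracting muscle, read 14.81 and 15.28 at day 7 and 14.93 and 15.10 at day 30. Its day 30 readings lay between those of day 7, and the change was -0.03 with an interval of -0.59 to 0.54. The intervals of these genes reach to about 1.5-fold or past it in at least 1 direction, so missing the test does not show that they were level.

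**Figure D2:**
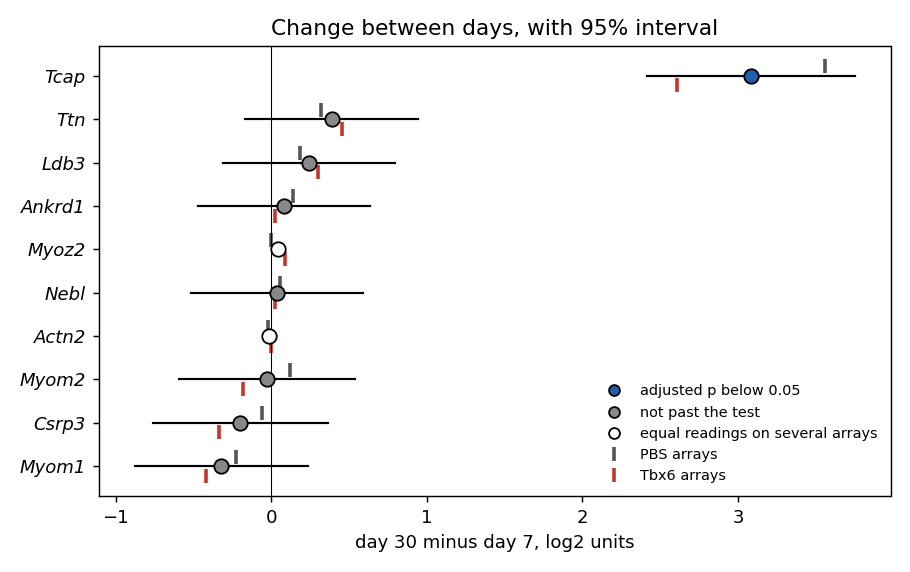
Change from day 7 to day 30 in log2 units for each gene (circle, limma's additive fit; line, 95% interval; ticks, the PBS and the Tbx6 pair of arrays alone). Tcap at 3.08 stands apart from the 7 grey circles between -0.32 and 0.39, and the open circles of Actn2 and Myoz2 carry no interval because their readings were equal on several arrays.

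For Actn2 and Myoz2 the arrays gave no usable comparison. Actn2, which encodes the sarcomeric alpha-actinin, read exactly 18.94 on 3 arrays and 18.92 on the fourth, PBS day 30. Myoz2, which encodes calsarcin 1, a partner of alpha-actinin and of the phosphatase calcineurin, read exactly 19.88 on both PBS arrays, and 19.84 and 19.93 after Tbx6 at day 7 and day 30. The last is the highest value of the whole table. Readings equal to the last deposited decimal occurred in 18 of the 46 genes with a mean of 18 or more (39.1%), but in 2 of 138 genes between 16 and 18 and in 0 of 302 between 14 and 16. The median absolute change between days was 0.14 in the highest class, 0.50 between 16 and 18 and 0.65 between 14 and 16. In the lower classes it was 0.57 from 12 to 14, 0.48 from 8 to 12 and 0.41 below 8. Only the highest class thus stood below the rest. The classes were drawn after the values had been seen. Of the other scaffold genes, Ttn, Csrp3, Ankrd1, Myom1, Nebl and Ldb3 lay between 16 and 18, where 31.2% of all genes were called for day, and Myom2 and Tcap lay lower.

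**Figure D3:**
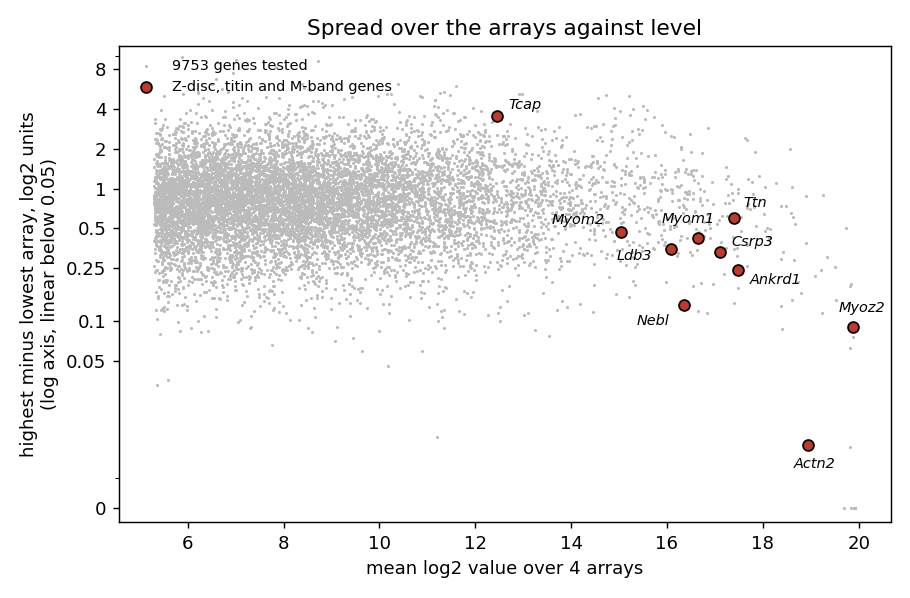
Difference between the highest and the lowest array (log2 units, log axis that is linear below 0.05) against the mean log2 value, with 1 grey point for each of 9753 genes and red points for the 10 scaffold genes. Tcap lies near the upper edge at its level, and Actn2 and Myoz2 lie in the narrow tail above 18.

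Tbx6 and PBS were compared next. On no day did any of the 10 genes differ by 1.5-fold between the arrays, where 15.6% of all genes tested did so at day 7 and 13.2% at day 30. At 2-fold the shares over all genes were 2.83% at day 7 and 2.14% at day 30, against 0 of the 10 on either day. At day 7 the differences, Tbx6 minus PBS, ran from -0.28 for Ttn to 0.53 for Tcap, with Myom2 next at 0.47. Of the 8 genes with a usable comparison, 7 read higher after Tbx6, against 47.7% of all genes tested with a mean below 18. After quantile normalisation the Tcap difference was 0.59, just past 1.5-fold. At day 30 they ran from -0.42 for Tcap to 0.17 for Myom2, with 5 of the 8 higher, against 51.0% of such genes. Tcap thus read higher after Tbx6 at day 7 and lower at day 30, without a test of that change of sign. Myom2 was higher on both days, by 0.47 and 0.17, and Ankrd1 by 0.22 and 0.10, while Ttn was lower on both, by -0.28 and -0.15. The median absolute difference of the 8 was 0.21 at day 7 and 0.12 at day 30, against 0.26 and 0.24 over all genes with a mean below 18. Over all genes with a mean between 16 and 18, where 6 of the 8 lay, it was close to that of the 8, at 0.22 and 0.13. Across both days limma called 0 of the 10 for injection, with 0 at an unadjusted p under 0.05. It called 0.0% of all genes tested, of which 421 had an unadjusted p under 0.05. The 95% intervals of the 10 injection terms lay between -0.77 (Ttn) and 0.89 (Myom2).

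**Figure D4:**
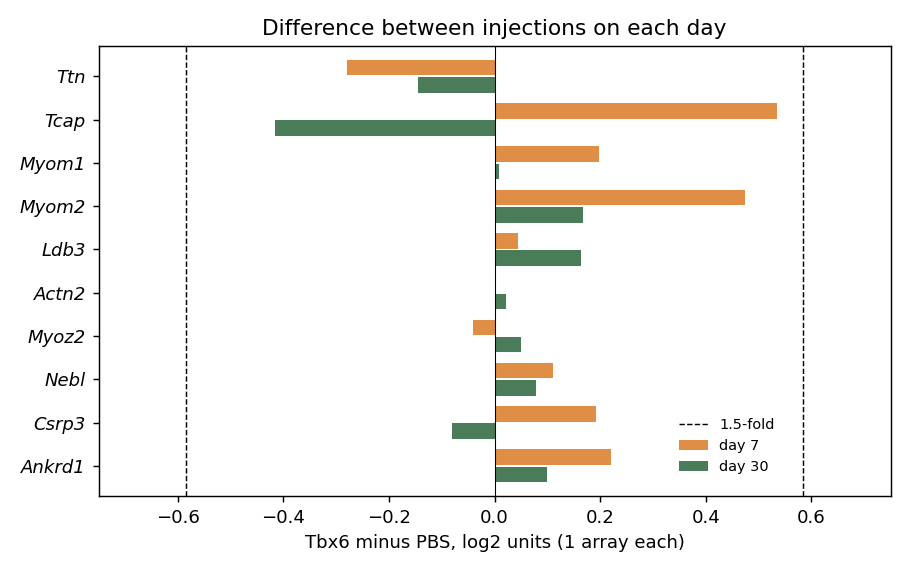
Tbx6 minus PBS in log2 units for each of the 10 genes at day 7 (orange) and day 30 (green), each from 1 array per injection, with dashed lines at 1.5-fold. Tcap has the longest bars, 0.53 at day 7 and -0.42 at day 30, and no bar crosses a dashed line.

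Because Ankrd1 is known as a stretch-response gene, other such genes were read beside it. At day 7, 4 of the 8 tested genes of the list were at least 1.5-fold lower after Tbx6 than after PBS. Over all genes tested, 820 of 9753 were. The 4 genes differed by -2.66 (Egr1), -1.70 (Ccn1), -1.41 (Ccn2) and -1.67 (Myc). The others differed by -0.51 (Nppb), -0.30 (Atf3), -0.25 (Nppa) and 0.01 (Acta1), and Ankrd1 by 0.22. The PBS array of day 7 is also the one on which airway genes and Ucp1 stood out, as given with the markers, and the part of this in the differences was not tested. At day 30, 2 of the 8 were at least 1.5-fold higher after Tbx6 (Ccn1 by 0.91, Ccn2 by 0.78). Another 2 were lower, Nppb, the gene of B-type natriuretic peptide, by -1.67 and Acta1 by -1.36. Over all genes tested, 13.2% differed by 1.5-fold in either direction. The others differed by 0.38 (Egr1), -0.25 (Myc), 0.12 (Atf3) and 0.01 (Nppa), and Ankrd1 by 0.10. Of the 8 tested genes of this list, 1 rose and 2 fell between days, or 37.5% against 26.3% of all genes tested. Acta1, the skeletal alpha-actin gene, rose by 3.42 (SE 0.34, adjusted p = 0.000306 by limma), with 13.18 and 13.19 at day 7 and 17.28 and 15.92 at day 30. As with Tcap, its rise was larger between the PBS arrays (4.10) than between the Tbx6 arrays (2.73). Nppb fell by 1.08 and the stress transcription factor gene Atf3 fell by 1.41. Fos was at background on every array, and Myc on both arrays of day 30. On Tbx6 day 7 Myc read 5.78, barely above that array's background of 5.77, so its day 7 difference is set by the floor. Nppa, the atrial peptide gene, read 19.43 to 19.93, in the range where readings are compressed.

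In 4 lists of Z-disc, titin-linked, M-band and thin filament genes, 55 of 57 genes were measured. Of the 48 tested, 16 rose and 10 fell, or 54.2% against 26.3% of all genes tested. Their median absolute change was 0.90, against 0.46 for all genes. For the 8 scaffold genes with a mean below 18, that is, without Actn2 and Myoz2, it was 0.22 (0.14 for all 10). The difference between the lists and the 8 genes was not tested. All lists were chosen with earlier results of these data known. Over all genes tested, the share called for day also differed by level, at 21.3% below 8, 29.0% from 8 to 12, 35.1% from 12 to 14 and 43.7% from 14 to 16. Leaving out a day 30 array lowered the 26 calls to 16 (without PBS) or 15 (without Tbx6), in a model with day as its only term. In that model, 13 of the 26 were called whichever array was left out, 9 rising and 4 falling.

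Among Z-disc structure and anchoring genes, 10 rose, 8 fell and 9 of the 27 tested did not pass. The share called was 66.7%, against 26.3% of all genes tested. Myot, which encodes myotilin, an actin crosslinker that binds alpha-actinin, read 6.99 and 6.15 at day 7 and 8.77 and 9.14 at day 30, and rose by 2.38 (SE 0.32). Cmya5, which encodes myospryn, a partner of alpha-actinin and desmin, rose by 2.07. Lrrc10, a cardiac leucine-rich repeat protein gene, rose by 1.98, from 11.15 and 12.04 to 13.49 and 13.65. Csrp2, a relative of Csrp3 known from smooth muscle, fell by 1.91. These 4 calls held without any 1 array.

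Members of the same families can be set side by side, a choice made after their values were seen. For the cysteine-rich LIM proteins, Csrp2 read 10.97 and 11.32 at day 7 and 9.34 and 9.13 at day 30, and Csrp1 fell by 1.30 (SE 0.25), whereas Csrp3 changed by -0.20. For the alpha-actinins, Actn4 fell by 1.32 (SE 0.25) and Actn1 by 0.90 (SE 0.24), where Actn2 had no usable comparison. The Actn1 call was lost when PBS day 7, PBS day 30 or Tbx6 day 30 was left out. The difference between family members was not tested. Collagen and other fibroblast markers fell on the same arrays, as given with the marker lists, and their part in these falls was not tested.

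A pair of chaperone genes of the Z-disc was picked after the values were seen. Cryab, the gene of the small heat shock protein alpha-B crystallin, read 16.50 and 17.06 at day 7 and 18.81 and 18.30 at day 30, a rise of 1.77 (SE 0.30). Its day 30 readings lie above 18, where readings are compressed, which limits the size given for its rise. Bag3, the gene of a co-chaperone that acts in clearing damaged filamin, rose by 1.65 (SE 0.26). Both pairs of day 30 readings were above both pairs of day 7. Desmin (Des), the intermediate filament that ties neighbouring Z-discs, rose by 0.996 (SE 0.25), a call lost without either day 30 array.

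The list of titin-linked signalling and turnover genes had 3 genes that rose and 2 that fell among 11 tested. The share called was 45.5%, against 26.3% of all genes tested. Trim54, which encodes the ubiquitin ligase MuRF3 and whose promoter is printed with those of the scaffold genes, read 7.41 and 7.16 at day 7 and 9.64 and 9.49 at day 30, and rose by 2.28 (SE 0.24). Its relative Trim55 (MuRF2) fell by 1.33, a call lost without PBS day 30. Trim63 (MuRF1), a marker of muscle atrophy, changed by 0.01 (SE 0.26). Fhl2, the gene of a titin-binding LIM protein, rose by 1.17, and Cavin4, of muscle caveolae, fell by 0.94. The Fhl2 call was lost without either day 30 array, and the Cavin4 call was lost without Tbx6 day 7 or either day 30 array.

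Of the genes that set thin filament length, 3 of 4 rose, against 14.2% of all genes tested. Tmod4, a tropomodulin that caps thin filaments and is best known from skeletal muscle, read 6.55 and 6.59 at day 7 and 9.59 and 9.63 at day 30. Its rise of 3.04 (SE 0.24, adjusted p = 0.000113 by limma) was close in size to that of Tcap, and it was 3.04 both after PBS and after Tbx6. The leiomodin genes Lmod3 and Lmod2, whose proteins lengthen thin filaments, rose by 1.10 and 0.88. The Lmod2 call was lost whichever array was left out, and the Lmod3 call was lost without Tbx6 day 7 or either day 30 array. In the M-band and thick filament list 0 of 6 tested genes passed limma's test, where 26.3% of all genes tested did. A difference between the lists was not tested. In the M-band and thick filament list, 2 genes had an unadjusted p under 0.05. Its widest change was that of Ckm, the muscle creatine kinase of the M-band, at 0.76 (SE 0.26, adjusted p = 0.0655 by limma).

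**Figure D5:**
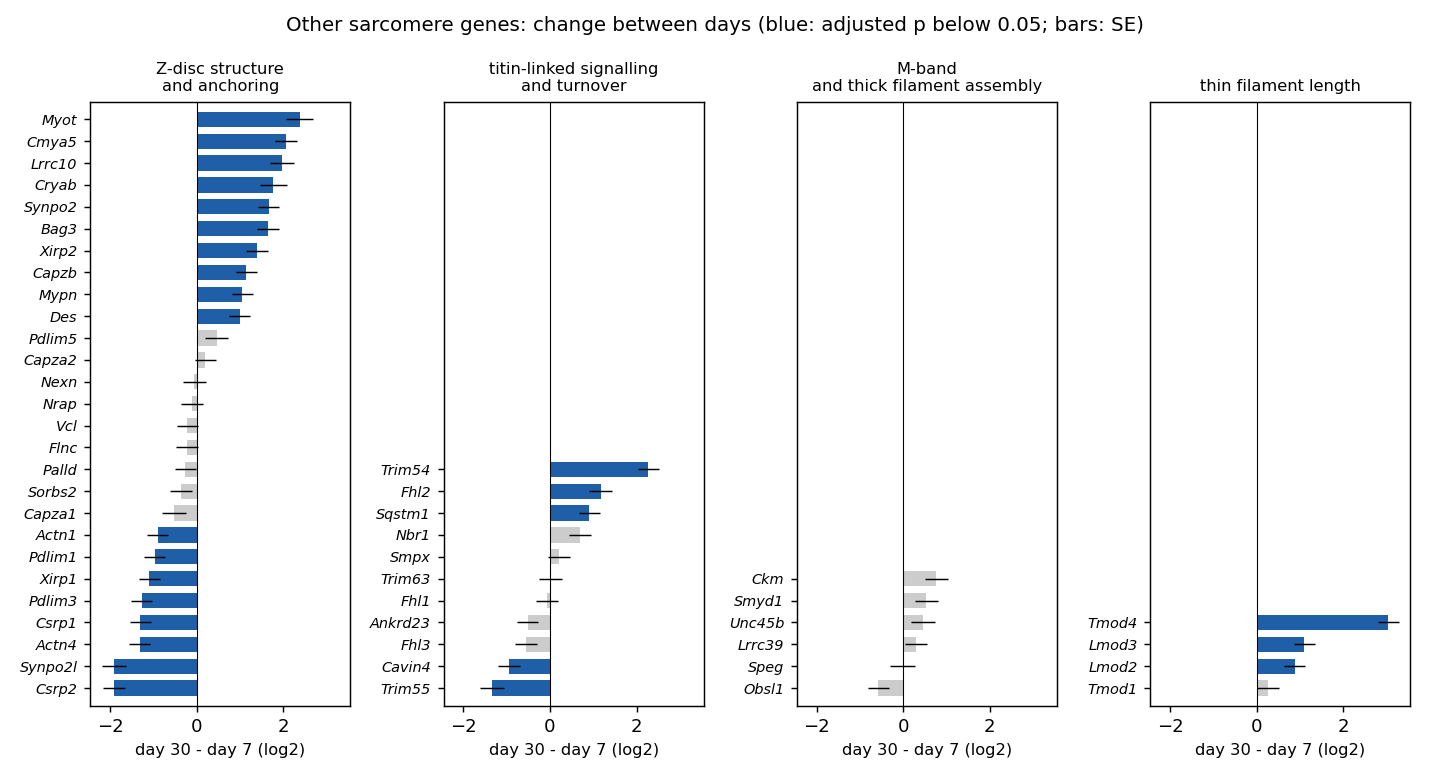
Change from day 7 to day 30 in log2 units for the 48 tested genes of the 4 lists, with SE as error bars (blue, past limma's adjusted test; grey, not past it). Tmod4 at 3.04 and Myot at 2.38 are the longest bars, and the M-band list has 0 blue bars.

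The 7 genes of these lists that were not tested were Myoz1, Myoz3, Actn3, Neb, Ankrd2, Capn3 and Myom3. Each is known chiefly from skeletal muscle, and each was at background on all 4 arrays, that is, no higher than the brightest of the array's background probe sets. The skeletal partners of Myoz2, Actn2, Nebl, Ankrd1 and Myom1 therefore gave no reading in these hearts.

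Tissue markers were read for the same arrays. Of the cardiomyocyte list, 7 of 7 were above background, with mean log2 levels of 18.87 to 19.02. Myh6, Tnnt2, Mb, Actc1 and Pln lay in the compressed range above 18, Actc1 and Pln with the same reading on all 4 arrays, so they give no comparison of days. Tnni3 and Ryr2 lay lower and changed by 0.18 and 0.21, neither past the test. All 11 fast skeletal muscle markers, Actn3 and the fast myosins included, were at background on every array (mean log2 3.87 to 4.23). Of 6 fibroblast markers 5 fell (Col1a1, Col1a2, Col3a1, Postn and Lum), with mean log2 levels of 15.75 and 15.58 at day 7 and 12.99 and 13.18 at day 30, and Dcn changed by -0.08 without a call. Of 4 macrophage markers 3 rose (Csf1r, C1qa and Lyz2), and of 5 endothelial markers 2 fell (Cdh5 and Kdr). Of 5 atrial markers Sln rose and Myl7 fell, of the smooth muscle markers 0 of 4 were called, and Alas2, the single erythroid marker measured, fell. Over all genes tested, 14.2% rose and 12.1% fell. The part of these markers in the results above was not tested.

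The PBS array of day 7 also carried airway genes, with a mean log2 level of 8.81 for 4 markers against 4.26 to 5.09 on the others, where Scgb1a1 and Scgb3a1 were at background on the other 3 arrays and Sftpc on all 4. Adipocyte markers ranged from 7.93 to 9.88 in mean log2 level, lowest on PBS day 30, with Plin1 at background on all 4. Ucp1, the brown fat gene, was highest on PBS day 7 (11.92, against 8.34 on Tbx6 day 30). Adipoq and Cidec were highest on Tbx6 day 30, at 9.83 and 7.88, against 7.98 and 7.10 on PBS day 7. With the PBS day 7 array left out, Tcap still rose by 2.81 (adjusted p = 0.000576 by limma, day as the only term). Over all 12 limma fits tried, its change lay between 2.81 and 3.35 with adjusted p from 7.9e-06 to 0.00429.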

How the data were processed

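The authors deposited 1 table of log2 values, which they had normalised by SST-RMA in Affymetrix Expression Console 1.4, per the labels. Base 2 is inferred from their range and from RMA's usual output. The direction and centring need no inference, since levels and not ratios were deposited. Their number, 4 arrays, limits the precision.

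Of 22206 transcript probe sets, 19572 had 1 gene symbol in the platform annotation, 0 had several and 2634 are unnamed here. For 55 genes with several probe sets the one with the highest mean was kept. Background is the highest of 23 background probe sets on an array (5.77 to 6.05). The median of all named genes, 5.30, set the filter. Values were not normalised further. Models used limma 3.58.1 (lmFit, eBayes) in R 4.3.3, and counts used Python 3.11.15, numpy 2.4.6 and pandas 2.3.3, with plots by matplotlib 3.10.9. Tested on simulated data, the day test found the larger planted changes and most of the smaller ones, with a share of false calls above the nominal threshold.

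The scaffold genes and all lists were chosen with earlier results of these data known. Named were the 10 genes, up to 4 called genes per wider list with the largest change, the stretch-response genes above background, and markers at background or over 1.5-fold apart, of which the shorter lists are given by their mean level and not gene by gene. A second part of the rule, genes at least 1.5-fold apart in the same direction on both days, took 0 genes. Csrp1, Actn1, Actn4, Cryab, Bag3, Des, Trim63 and Ckm were named after their values were seen. Pdlim7, Pdgfra, Cd68, Hbb-bt and Hba-a1 were not analysed here. Alternatives were quantile normalisation, median centring, other filters, a trended prior, leaving out genes at the highest value, day as the only term, and leaving out each array.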

Additional observations from a re-analysis of the deposited data

How the results depend on the processing

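Of the 10 scaffold genes, the count called for day was 1 in every fit tried, and that gene was Tcap. With day as the only term and 1 array left out, it was again 1 of 10, while calls over all genes ranged from 1248 (without Tbx6 day 30; 1402 without PBS day 30) to 2067, and calls in the 4 wider lists from 15 (16 without PBS day 30) to 22. A lone array of a day is there assumed to vary like the pair of the other day. After quantile normalisation the count of scaffold genes at least 1.5-fold apart at day 7 was 1 (Tcap) in place of 0. Leaving out Actn2 and Myoz2, chosen after seeing the data, left 1 call for day and 0 for injection among 8 genes. The other alternatives kept these counts within 1.5 times. Each scaffold gene has 1 probe set, so no other probe set could be tried. The additive model itself cannot lose an array, since no residual degree of freedom would be left. No paired analysis was possible because the labels carry no replicate numbers. Compression above 18 log2 units limits Actn2 and Myoz2.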

Other observations

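Families within the wider lists held members that changed in opposite directions between days, an observation picked out after the values were seen and without a test of the difference within a family. Among the Xin proteins, which bind actin and are known from Z-discs and intercalated discs, Xirp2 rose by 1.39 (SE 0.26) and Xirp1 fell by 1.09 (SE 0.25), the latter a call lost without Tbx6 day 30. Among the synaptopodin relatives of the Z-disc, Synpo2 rose by 1.67 (SE 0.24), from 9.82 and 9.78 to 11.55 and 11.38. Synpo2l fell by 1.91 (SE 0.28), from 12.57 and 12.43 to 10.28 and 10.90. These 2 calls held without any 1 array.

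Tcap, Acta1, Cryab, Bag3 and Lrrc10 each rose more between the PBS arrays than between the Tbx6 arrays, a difference that was not tested. They were picked for this order after the values were seen. Cryab's day 30 readings lie in the compressed range above 18. The same order held for 9 of the 16 genes that rose in the wider lists and for 45.6% of the 1385 genes that rose in all, so it is not particular to the genes named. Myot had the opposite order, with rises of 1.77 (PBS) and 2.99 (Tbx6).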
